A study of Homo sapiens with 12 samples.

Results

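Of the 63568 genes in the deposited TPM table, 171 were level between BRG1 depleted and control LNCaP cells at 72 h and at least 2 times higher in the depleted cells at 144 h. The rule took protein-coding and lncRNA genes with a mean in BRG1 depleted cells at 72 h from 25% below to 35% above the si-NT mean, and with a mean at 144 h of 2 TPM or more and of 2 times the si-NT mean or more. Each of the 4 depleted libraries at 144 h also had to lie above both si-NT libraries of that time point. TPM is a gene's share of a library's transcripts after correction for gene length, on a scale with the same total in every library. Of the 171 genes, 146 are protein-coding and 25 are lncRNAs, and all 171 were among the 16337 genes tested (13627 of them protein-coding or lncRNA). The values at both time points chose these genes, so their differences at 72 h and 144 h, and the change between the time points, are descriptions here and carry no test.

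LNCaP is an androgen-responsive line from a lymph node metastasis of a prostate cancer, and SMARCA4 encodes BRG1, an ATPase of the SWI/SNF complexes that move nucleosomes along DNA. Control cells received a pool of non-targeting siRNAs (si-NT), and depleted cells received 1 of 2 SMARCA4 siRNAs, which the table numbers 2 and 3 and the labels 1 and 2. How these numbers match is not stated, and the table's are used here. Cells were collected at 72 h, or were split and transfected again at 72 h and collected at 144 h. All libraries are of this 1 line. Each siRNA and time point had 2 libraries, which gives 2 si-NT and 4 BRG1 depleted libraries at each time point and 12 in all. Nothing states that the replicates were separate cultures, so the spread between them may be technical. The 144 h cells differ from the 72 h cells in time, in the re-plating and in the second transfection together, and these cannot be told apart.

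BRG1-containing SWI/SNF complexes open chromatin at enhancers and promoters, and loss of the ATPase is best known for lowering the output of the genes it serves. Transcript levels can also become higher after its loss, and in a relative unit such as TPM a gene also takes a larger share when others take less. Luminal prostate cells are secretory. A secretory path uses enzymes that fold and cleave proteins, and Rab, synaptotagmin and melanophilin proteins that carry vesicles to the membrane. On lists that touch on this, members were 1 of 55 Rab genes tested, 3 of 49 matrix and integrin genes tested and 0 of 10 luminal prostate markers. Over all genes tested, members were 171 of 16337. Nothing is read from counts this small. Of all members, 63 had no role assigned.

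Abundant members at 144 h included FXYD3, a regulator of the sodium pump, at 2.93 times its si-NT mean in depleted cells, LAMB2, a laminin chain, at 2.81 times, QSOX1, an oxidase of the secretory path, at 2.74 times and TMSB4X, which binds actin monomers, at 2.70 times. The largest ratios belonged to less abundant genes, among them the synaptotagmin SYT17 (7.74), FAM156B (6.21), the adaptor SHC2 (5.58) and the histone gene H3C4 (5.30). In some members, such as GNMT and HSPB8, the si-NT means of both times were close and the depleted mean was higher at 144 h. In others, such as TSC22D3 and CELSR3, the depleted means of both times were close and the si-NT mean was lower at 144 h.

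SMARCA4 was at 97.0 and 73.4 TPM in the si-NT libraries at 72 h and at 94.5 and 106.6 TPM in those at 144 h. In the depleted libraries it was at 17.5 to 21.7 TPM at 72 h and at 11.4 to 17.4 TPM at 144 h, with no overlap. All 10 luminal prostate markers were among the genes tested, as were 2 of 7 stromal and 1 of 8 neuroendocrine markers and none of the basal, endothelial or immune markers. The stromal markers summed to 3.54 to 10.28 TPM and the neuroendocrine markers to 0.47 to 1.66 TPM, and the neuroendocrine marker tested was called higher at 144 h, by 0.66 on the log2 scale. A wider list of neuronal and neuroendocrine genes, of which 8 were tested, had 2 called higher and 3 lower at 144 h. The ERCC spike-ins, RNAs added in a fixed amount to the total RNA, took 0.805% to 1.97% of a library's TPM, and mitochondrial transcripts took 12.7% to 16.6%. Read depth cannot be recovered from TPM, so precision rests on the replicates.

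Summed over the 171 genes, the 4 depleted libraries at 144 h held 4747 to 5669 TPM and the 8 other libraries 2083 to 3673 TPM. The mean was 2706 ± 415.8 TPM (SD, n = 2) in si-NT at 72 h, 3240 ± 366.1 TPM (n = 4) in depleted cells at 72 h, 2188 ± 147.8 TPM (n = 2) in si-NT at 144 h and 5156 ± 381.1 TPM (n = 4) in depleted cells at 144 h. The sum was therefore highest in the depleted cells at 144 h, and the lowest sums of all belonged to the controls of the same time point. Fewer cells of a state and less RNA per cell cannot be told apart in such bulk libraries.

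The ratio of depleted to si-NT mean TPM at 144 h ran from 2.00 to 7.74 with a median of 2.30, against a median of 1.03 over all genes tested. It was under 2.5 for 110 genes and 3 or more for 25. At 72 h the ratio ran from 0.752 to 1.348, with a median of 1.19 against 1.05 over all genes, and was under 1 in 33 genes and more than 25% above equal in 60. Most of the genes thus already had a somewhat higher mean in depleted cells at 72 h, within the band. All 4 depleted libraries lay above both si-NT libraries at 72 h in 26 of the 171 genes (15.2%, against 16.3% of all genes tested). In 0 genes did all 4 lie below (6.93% of all genes). Most members were not abundant: the depleted mean at 144 h was 100 TPM or more in 14, 10 TPM or more in 84 and under 5 TPM in 52.

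At the limits of the rule, CITED1, a transcriptional co-activator, was just inside at 72 h with a ratio of 1.347, and SYT7, a synaptotagmin, just outside with 1.351. At 144 h BICDL1, an adaptor that links vesicles to dynein, was inside with a ratio of 2.002, and CBLC, a ubiquitin ligase, outside with 1.999. MYL9 was inside the expression limit with 2.09 TPM, and the transcription factor MAF outside with 1.95 TPM. Genes on either side of a limit thus had nearly equal values.

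limma on log2(TPM + 1) placed 149 of the 171 genes higher in depleted cells at 144 h at an adjusted p under 0.05, where 13.6% of all genes tested were higher. At 72 h it placed 1 gene, TMBIM1, among those that differed, where 1.68% of all genes did so in either direction, and 17 at an unadjusted p under 0.05 (14.3% of all genes). The change at 144 h differed from that at 72 h in 0 genes at an adjusted p under 0.05 and in 130 at an unadjusted p under 0.05, where 0.0122% and 5.54% of all genes had a larger change at 144 h. The rule used each of these contrasts, so nothing is read from the counts. Without si-NT replicate 2 at 144 h the 144 h count was 75, and after scaling to the ERCC spike-ins it was 14.

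The name these genes were given, genes rising only at 144 h, describes some of them and not others, since a ratio of 2 at 144 h can arise from a higher depleted level, a lower control level or both. From 72 h to 144 h, the depleted mean was higher in 166 of the 171 genes (97.1%, against 42.4% of all genes tested) and the si-NT mean was lower in 157 (91.8%, against 50.2%). On the log2 scale, the si-NT mean was lower by more than the depleted mean was higher in 66 genes (38.6%, against 55.4%). The depleted mean at 144 h was at least 1.5 times that at 72 h in 95 genes (55.6%, against 5.18%) and at least 2 times in 27 (15.8%, against 2.03%). The si-NT mean at 144 h was at most 0.75 times that at 72 h in 85 genes (49.7%, against 11.3%) and at most 0.5 times in 23 (13.5%, against 3.04%). These shares follow in part from the rule, and nothing is read from them. In 80 genes (46.8%, against 4.94% of all genes) the 4 depleted libraries at 144 h lay above the other 8 libraries, and in 62 (36.3%, against 6.05%) both si-NT libraries at 144 h lay below the other 10. In 54 genes the depleted mean at 144 h was at least 1.5 times that at 72 h while the si-NT mean stayed from 20% below to 25% above its 72 h value. In 24 genes the depleted mean stayed within those same limits of its 72 h value while the si-NT mean at 144 h was at most 0.6 times that at 72 h. limma between the time points placed 56 members higher in depleted cells at 144 h than at 72 h (2.58% of all genes) and 0 members lower in si-NT (0.0%), with 28 lower at an unadjusted p under 0.05 (2.57%). For the 54 and the 24 genes, no share over all genes tested is given. The rule used the means of all 4 groups, so nothing is read from any of these counts. The limma counts also cannot be set against each other, since si-NT had 2 libraries at each time point and depleted cells 4.

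**Figure D1:**
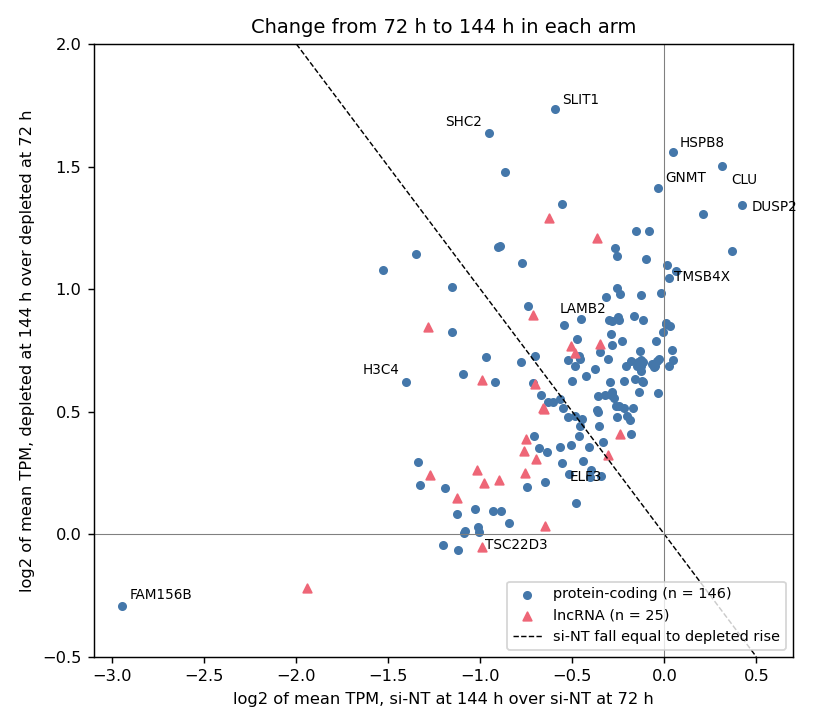
Each of the 171 genes by its log2 ratio of mean TPM at 144 h over 72 h in si-NT (horizontal, 2 libraries a mean) and in BRG1 depleted cells (vertical, 4 libraries a mean), with 146 protein-coding genes as circles and 25 lncRNAs as triangles. The 66 genes below the dashed line had a si-NT mean that was lower by more than the depleted mean was higher.

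The si-NT libraries at 72 h differed from each other in these genes. Replicate 2 was higher than replicate 1 in 134 of the 171 genes (78.4%, against 51.9% of all genes tested), and at least 1.5 times higher in 61 (35.7%, against 1799 of the 16337 tested). At 144 h, replicate 2 of si-NT was the higher one in 53 (31.0%, against 46.5%). With si-NT replicate 2 at 72 h left out, the rule found 98 genes, 82 of them among the 171, and the members with the larger si-NT difference numbered 40. With si-NT replicate 1 at 144 h left out it found 286 genes. With all 4 si-NT libraries taken as one control for both times, 42 of the 171 genes met the rule. The number of genes that met the rule thus moved with the control libraries used.

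**Figure D2:**
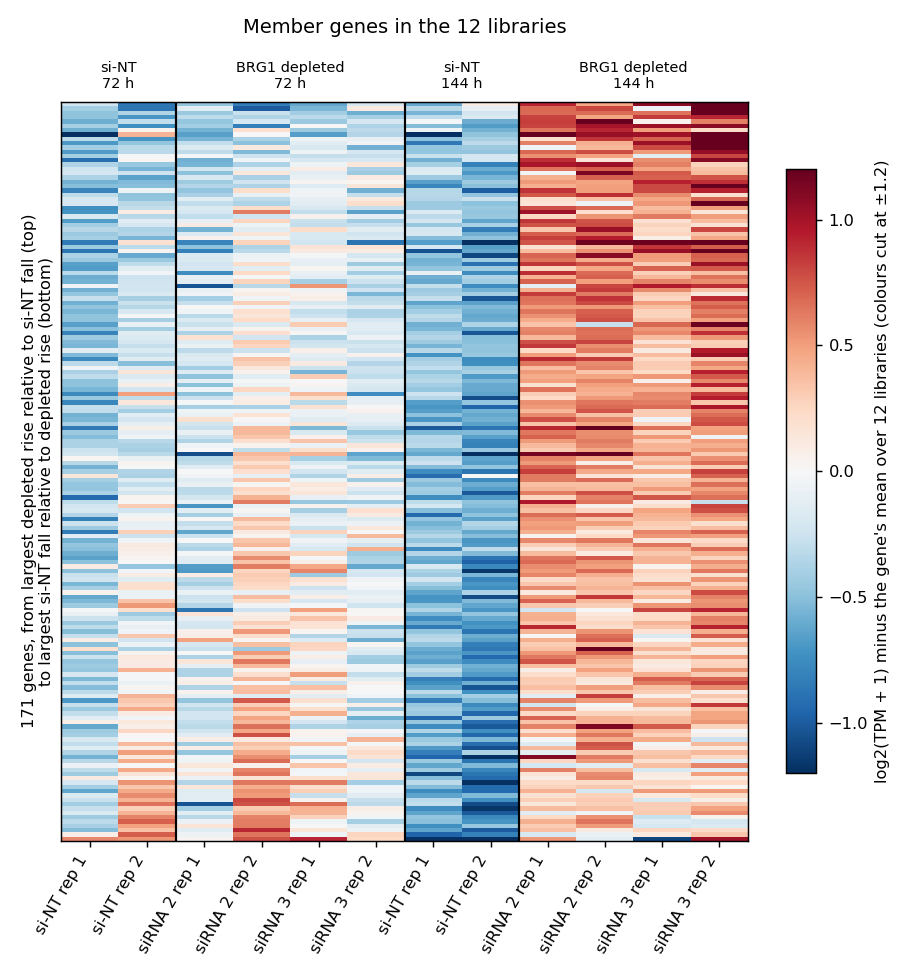
Colour gives log2(TPM + 1) minus the gene's mean over the 12 libraries (columns, grouped by treatment and time) for the 171 genes (rows), sorted by the log2 difference between the depleted change and the si-NT change from 72 h to 144 h. Upper rows are highest in the 4 depleted libraries at 144 h. Lower rows are low mainly in the 2 si-NT libraries at 144 h, and there si-NT replicate 2 at 72 h stands above replicate 1.

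Scaling to the spike-ins left 30 of the 171 genes within the rule (42 genes in all), and under it the median log2 difference of all genes tested at 144 h was -0.31 in place of 0.03. The spike-in share differed between the si-NT libraries at 144 h (0.805% and 1.34%), and in depleted libraries it was 1.04% to 1.97%. With spike-in scaling 0.851% of all genes tested were called higher and 3.75% lower at 144 h, so each list below is also given with it. It turned the sign of 2 of the list medians given, to -0.13 for matrix and integrin genes and -0.11 for Rab genes. Of the genes outside the 171 whose change at 144 h is given below as a rise or fall, LAMA1, TMSB15A and YPEL3 kept an adjusted p under 0.05 with it. The others kept their direction with adjusted p-values of 0.0748 to 0.741. With median-of-ratios size factors 151 of the 171 genes met the rule. With each of the 12 libraries left out in turn, 25 of the genes met it every time, and 10 did so also under both scalings. Picked after their values were seen, those 10 are FXYD3, GNMT, HSPB8, PPP1R32, HEY1, DMXL1, FAM156B, MAPK11 and the lncRNA genes ENSG00000225339 and ENSG00000272468.

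FXYD3 (ENSG00000089356.12, chromosome 19, 35606727 to 35615228, GRCh37, plus strand), which encodes a small regulator of the sodium pump, was the most abundant member. It was at 137.95 and 139.06 TPM in si-NT at 72 h, at 127.5, 128.68, 191.85 and 167.94 TPM in depleted cells at 72 h, at 103.67 and 86.04 TPM in si-NT at 144 h and at 240.98, 270.06, 268.47 and 333.77 TPM in depleted cells at 144 h (siRNA 2 first). The 144 h depleted libraries lay above all others and the si-NT libraries of 144 h below all others. The ratio was 1.11 at 72 h and 2.93 at 144 h.

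HSPB8, a small heat shock protein that works with the autophagy of misfolded proteins, was at 2.90 TPM on average in depleted cells at 72 h and at 8.54 TPM at 144 h, while si-NT was at 2.92 and 3.02 TPM. GNMT, which uses S-adenosylmethionine to methylate glycine, was at 13.27 and 10.32 TPM in si-NT at 72 h and at 12.15 and 10.85 TPM at 144 h. In depleted cells it was at 9.68 to 17.9 TPM at 72 h and at 32.06 to 38.83 TPM at 144 h. In both genes the control was level between the time points and only the depleted cells at 144 h stood apart.

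DMXL1, a partner of the proton pump of endosomes and lysosomes, was at 13.8 TPM in si-NT and 39.8 TPM in depleted cells at 144 h. MAPK11, the beta form of the p38 stress kinase, was at 1.85 and 5.84 TPM. The other p38 genes gave no adjusted p under 0.05 at 144 h: MAPK12, MAPK13 and MAPK14 differed by 0.18, 0.18 and 0.17 on the log2 scale, with SEs of 0.17, 0.12 and 0.13.

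**Figure D3:**
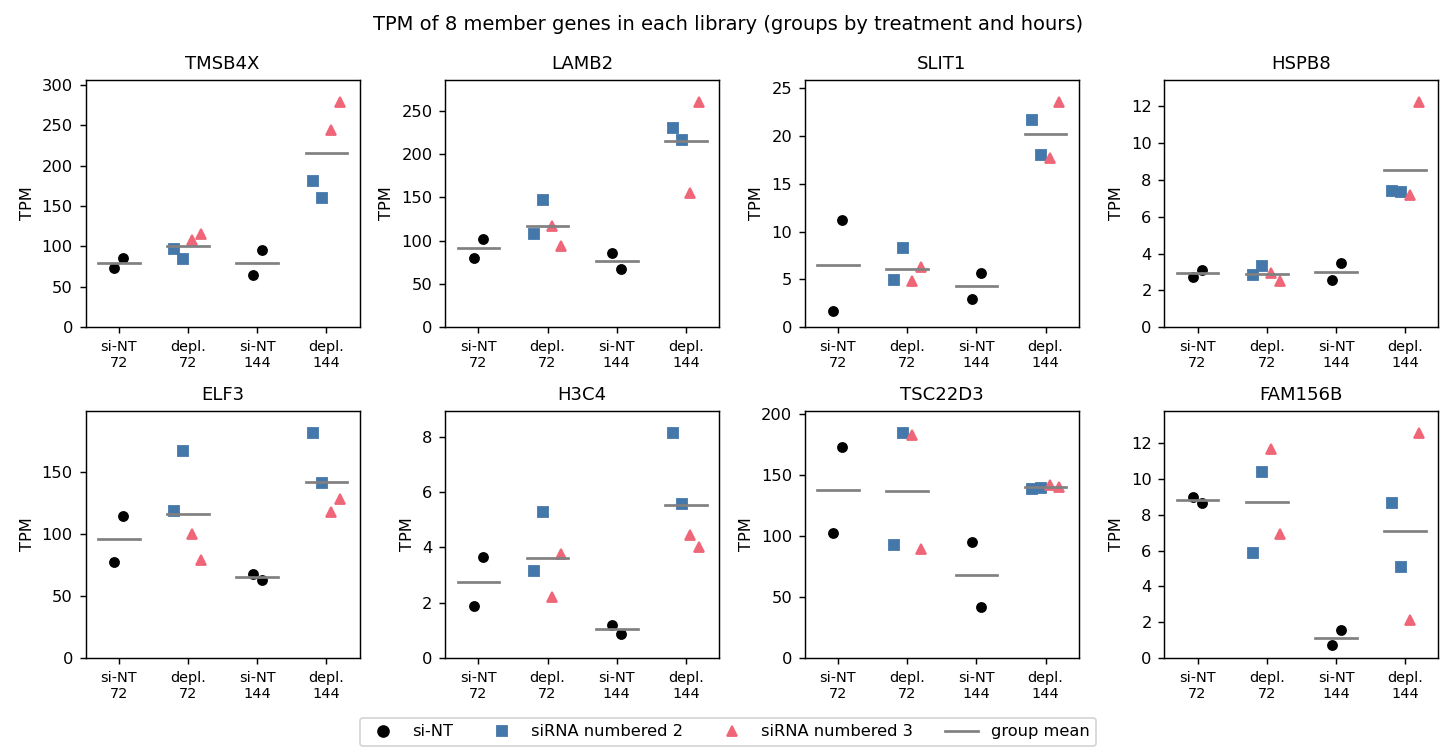
TPM (vertical, from 0) of 8 members in each of the 12 libraries, with a grey bar at each group's mean. TMSB4X, LAMB2, SLIT1 and HSPB8 have their 4 highest values in the depleted libraries at 144 h, while ELF3, H3C4 and FAM156B have their lowest values, and TSC22D3 its lowest single value, in si-NT at 144 h.

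Among role groups of 5 genes or more, genes of the matrix, of secretion and of the secretory path had the highest median ratio between the depleted means. Of 14 such genes, 8 had all 4 depleted libraries at 144 h above the other 8, where 46.8% of all members and 4.94% of all genes tested did. The si-NT difference was the larger one in 1 (38.6% of all members), and the median ratio of the depleted means at 144 h over 72 h was 1.88, against 1.55 over all 171. The 8 of 14 lie near the share of all members. These role groups were drawn up after the values were seen, for 108 of the genes, so nothing is read from differences between them. SLIT1, a guidance ligand of ROBO receptors, had the largest ratio between the depleted means (3.33). It was at 21.7, 18.08, 17.76 and 23.56 TPM in depleted cells at 144 h, at 4.88 to 8.32 TPM in those at 72 h and at 2.92 and 5.65 TPM in si-NT at 144 h. Its si-NT libraries at 72 h were at 1.68 and 11.26 TPM, so the 72 h ratio of 0.942 rests on a pair of libraries that lie far apart.

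QSOX1, the secreted oxidase that forms disulfide bonds in the Golgi, was at 94.98 and 94.78 TPM in si-NT at 72 h and at 78.47 and 95.55 TPM at 144 h. Depleted cells held 104.96 to 150.79 TPM at 72 h and 184.01, 191.31, 235.67 and 341.62 TPM at 144 h. Its paralog QSOX2 fell at 144 h, with a log2 difference of -0.65 (SE 0.13, limma adjusted p = 0.00422). FURIN, the convertase that cleaves proproteins in the secretory path, was at 5.69 TPM in si-NT and 16.3 TPM in depleted cells at 144 h, and the 3 other convertases tested had adjusted p-values of 0.25 to 0.625.

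LAMB2, the beta-2 chain of laminin in basement membranes, was at 80.12 and 102.18 TPM in si-NT at 72 h, at 85.26 and 67.59 TPM in si-NT at 144 h and at 229.74, 215.94, 155.0 and 259.64 TPM in depleted cells at 144 h. The depleted libraries at 72 h were at 93.9 to 146.77 TPM, under every depleted library of 144 h. Among the other laminin genes, LAMA5 and LAMC1 rose at 144 h by 0.91 (SE 0.20, limma adjusted p = 0.00769) and 0.78 (SE 0.14, adjusted p = 0.00239) on the log2 scale, and LAMA1 fell by 1.63 (SE 0.30, adjusted p = 0.00294). LAMA3, LAMC3 and LAMB1 were not called, with log2 differences of 0.17, -0.20 and -0.52 and adjusted p-values of 0.593, 0.567 and 0.0867. COL6A1 and COL6A2, which encode chains of collagen VI and lie side by side on chromosome 21, had 144 h ratios of 2.08 and 2.82. COL6A1 was a member, and COL6A2 was left out by its 72 h ratio of 1.41. Of 49 matrix and integrin genes tested, 15 were called higher and 7 lower at 144 h, with a median log2 difference of 0.17, against 13.6% higher, 10.8% lower and 0.03 over all genes. With spike-in scaling the counts were 1 higher and 4 lower. COL26A1, a collagen gene and a member on that list, was at 6.43 TPM in si-NT and 14.4 TPM in depleted cells at 144 h. SELENOM, a selenoprotein of the endoplasmic reticulum, was at 60.9 and 145.2 TPM.

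CARTPT, a neuropeptide precursor, was near the floor, at 0.07 to 2.17 TPM in depleted cells at 72 h and at 1.02 to 3.28 TPM at 144 h. CLU, the extracellular chaperone clusterin, differed from most members in that its si-NT mean was higher at 144 h (27.9 TPM) than at 72 h (22.4 TPM). Its depleted mean was 22.6 TPM at 72 h and 63.9 TPM at 144 h.

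The 14 members of membrane traffic, lysosome and lipid flipping had a median 144 h ratio of 2.54. SYT17, a synaptotagmin of the Golgi and endosomes, had the largest ratio of all 171 genes, 7.74, at low levels. It was at 2.92, 4.64, 3.32 and 2.12 TPM in depleted cells at 144 h and at 0.55 and 0.29 TPM in si-NT, and at 72 h one depleted library, siRNA 2 replicate 2, was at 3.10 TPM against 0.97 to 1.07 TPM in the others. MLPH, melanophilin, which couples Rab27 vesicles to myosin, was at 217.06 to 259.43 TPM in depleted cells and at 104.69 and 82.17 TPM in si-NT at 144 h. At 72 h it was at 126.17 to 206.23 TPM and at 115.05 and 162.0 TPM, so the groups overlapped.

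RAB26, a GTPase of secretory granules, was at 51.37, 59.72, 38.58 and 60.58 TPM in depleted cells at 144 h and at 26.2 and 15.27 TPM in si-NT. Of 55 Rab genes tested, 19 were called higher and 1 lower at 144 h, with a median log2 difference of 0.26, and with spike-in scaling 1 was higher and 0 were lower. Over all genes tested, 13.6% were called higher and 10.8% lower at 144 h (0.851% and 3.75% with spike-in scaling). WIPI1, which binds the membrane of forming autophagosomes, was at 20.3 TPM in depleted cells at 144 h, 14.0 TPM in both arms at 72 h and 9.22 TPM in si-NT at 144 h. The lysosome and autophagy list held 19 called higher and 1 called lower of 35 tested, and a median log2 difference of 0.49. With spike-in scaling it held 1 higher and 0 lower, and its median was 0.09. WIPI1 was its single member among the 171. ARSA, the lysosomal arylsulfatase A, not on that list, was at 10.8 TPM in si-NT and 27.5 TPM in depleted cells.

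TMBIM1, a membrane protein of endosomes and lysosomes, had some of the tightest replicates. It was at 92.67 and 98.65 TPM in si-NT and 119.76 to 134.94 TPM in depleted cells at 72 h, and at 89.25 and 86.19 TPM and 188.33 to 209.79 TPM at 144 h. PLEKHB1 and PLEKHB2, which both carry a pleckstrin homology domain, were both members, at 79.6 and 73.9 TPM in si-NT and 181.3 and 177.4 TPM in depleted cells at 144 h. With siRNA 2 and siRNA 3 they were at 218.4 and 144.2 TPM (PLEKHB1) and at 152.1 and 202.7 TPM (PLEKHB2), so the siRNAs ranked in opposite order.

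Of 12 cytoskeletal members the most abundant was TMSB4X (ENSG00000205542.6, chromosome X, 12993229 to 12995346, GRCh37, plus strand), thymosin beta-4, which holds actin monomers. It was at 73.01 and 85.42 TPM in si-NT at 72 h, at 96.67, 83.91, 107.95 and 115.1 TPM in depleted cells at 72 h, at 64.85 and 95.13 TPM in si-NT at 144 h and at 181.33, 160.13, 244.7 and 278.52 TPM in depleted cells at 144 h. The 8 libraries outside the last group covered 64.85 to 115.1 TPM, below every library in it. Of the other beta-thymosin genes tested, TMSB15A fell by 0.97 on the log2 scale at 144 h (SE 0.26, limma adjusted p = 0.0211). TMSB10, at 1239 and 1509 TPM, differed by 0.28 (SE 0.20, adjusted p = 0.36), and TMSB15B had an adjusted p of 0.631.

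TTLL1, TTLL3 and TTLL7, of the family that adds glutamate or glycine chains to tubulin, were members with 144 h ratios of 2.29, 2.11 and 2.05. Of the 5 other TTLL genes tested, none had an adjusted p under 0.05 at 144 h, with log2 differences of -0.43 to -0.14. The si-NT means of the 3 members at 144 h were 0.704, 0.639 and 0.61 times those at 72 h. TUBB3, a beta-tubulin of neurons, was at 28.11 to 39.52 TPM in depleted cells and at 16.42 and 17.1 TPM in si-NT at 144 h. It was the only member on the neuronal and neuroendocrine list. Of 8 genes tested there, 2 were called higher and 3 lower at 144 h (0 and 3 with spike-in scaling), with a median log2 difference of -0.11. Over all genes tested 13.6% were higher and 10.8% lower. That list summed to 185.4 to 220.5 TPM in si-NT and 78.88 to 97.78 TPM in depleted libraries at 144 h. MYL9, a myosin light chain, was at 0.91 to 4.35 TPM in depleted cells at 144 h and at 0.42 and 0.47 TPM in si-NT, so its ratio of 4.69 rests on low levels.

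The signalling members included SHC2, an adaptor of receptor tyrosine kinases. It was at 9.25, 12.56, 12.73 and 13.09 TPM in depleted cells at 144 h, at 2.32 to 6.31 TPM in those at 72 h, at 2.38 and 5.90 TPM in si-NT at 72 h and at 2.84 and 1.43 TPM in si-NT at 144 h. SHC1, the common member of that family, differed by -0.19 at 144 h (SE 0.13, adjusted p = 0.325). DUSP2, a phosphatase of MAP kinases, was at 54.28, 58.89, 32.19 and 120.15 TPM in depleted cells at 144 h and at 26.28 and 30.93 TPM in si-NT, and was a member that limma did not call at 144 h (adjusted p = 0.0939). CHRNA2, a nicotinic receptor subunit, had a ratio of 5.24, with 1 library at 5.70 TPM against 1.85 to 2.47 TPM in the other depleted libraries and 0.73 and 0.45 TPM in si-NT. TNFRSF14 and PTPN21, a receptor of lymphoid signalling and a tyrosine phosphatase, were among the members whose depleted means hardly differed between the time points (ratios of 1.00 and 1.03), with si-NT ratios of 0.471 and 0.557.

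Both replication-dependent histone genes among the members lie in the histone cluster of chromosome 6. Such genes are transcribed in S phase and most of their mRNA ends in a stem loop without a poly(A) tail, while these libraries were made from poly(A) RNA. H3C4 (ENSG00000197409.6, 26197012 to 26197514, GRCh37, minus strand) was at 1.87 and 3.66 TPM in si-NT at 72 h, at 3.16, 5.26, 2.21 and 3.76 TPM in depleted cells at 72 h, at 1.21 and 0.88 TPM in si-NT at 144 h and at 8.13, 5.55, 4.46 and 4.02 TPM in depleted cells at 144 h. Its si-NT libraries at 144 h were the lowest of the 12, and the depleted libraries of both time points overlapped. H2BC11 was at 3.54 and 3.04 TPM in si-NT and at 6.45 to 8.19 TPM in depleted cells at 144 h, above the other 8 libraries.

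Of 24 histone genes tested, 10 were called higher and 0 lower at 144 h, with a median log2 difference of 0.43, and with spike-in scaling 4 were higher and 0 lower. The shares over all genes tested were 13.6% higher and 10.8% lower (0.851% and 3.75% with spike-in scaling). H2AC11 was outside the rule by a 72 h ratio of 1.353. Summed histone TPM was 169.5 and 198.8 in si-NT and 384.0 to 543.5 in depleted libraries at 144 h, and 216.7 to 300.1 and 292.1 to 408.0 at 72 h. The ribosomal RNA genes, which also lack poly(A) tails, summed to 27.3 and 222.8 TPM in si-NT and to 171.8 to 866.8 TPM in depleted libraries at 144 h, and to 12.2 and 575.4 TPM in si-NT at 72 h. Their part in the histone values was not tested. The lncRNA gene ENSG00000272468, 2676 bases from H2BC11, was also a member, at 0.29 and 0.82 TPM in si-NT and 2.24 to 3.02 TPM in depleted cells at 144 h.

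RefSeq promoters, 250 bases before to 50 after a transcription start (GRCh38.p14), were matched by symbol for 124 of the 171 genes, with 192 starts. The promoters of both histone genes are shown because they share the letters of the TATA and CCAAT boxes, and those of ELF3 and TMSB4X, both abundant members, because they differ from each other in the same letters. The letters searched on both strands were TATAAA for the TATA box, CCAAT for the box of that name, GGGCGG for the GC box, CACGTG for the E-box, TGANTCA for the AP-1 element and TGACGTCA for the cAMP element. Capitals mark every match, and neighbouring matches can overlap. H3C4 has 2 listed starts, and only the one with the lower coordinate is shown and counted. The regions are chr6:26197237-26197536 on the minus strand for H3C4, chr6:27132746-27133045 on the minus strand for H2BC11, chr1:202010337-202010636 on the plus strand for ELF3 and chrX:12974860-12975159 on the plus strand for TMSB4X.
H3C4: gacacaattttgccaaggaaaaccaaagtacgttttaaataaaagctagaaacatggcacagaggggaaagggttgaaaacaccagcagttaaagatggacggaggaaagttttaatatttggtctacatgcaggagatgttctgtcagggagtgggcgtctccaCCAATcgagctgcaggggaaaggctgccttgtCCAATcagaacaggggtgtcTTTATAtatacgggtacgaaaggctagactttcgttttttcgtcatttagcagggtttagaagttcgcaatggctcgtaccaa
H2BC11: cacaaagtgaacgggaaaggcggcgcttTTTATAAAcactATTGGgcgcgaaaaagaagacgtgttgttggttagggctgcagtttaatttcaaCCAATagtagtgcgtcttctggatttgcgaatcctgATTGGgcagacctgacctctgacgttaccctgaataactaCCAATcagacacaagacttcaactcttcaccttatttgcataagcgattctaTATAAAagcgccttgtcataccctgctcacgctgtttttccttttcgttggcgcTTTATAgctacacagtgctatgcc
ELF3: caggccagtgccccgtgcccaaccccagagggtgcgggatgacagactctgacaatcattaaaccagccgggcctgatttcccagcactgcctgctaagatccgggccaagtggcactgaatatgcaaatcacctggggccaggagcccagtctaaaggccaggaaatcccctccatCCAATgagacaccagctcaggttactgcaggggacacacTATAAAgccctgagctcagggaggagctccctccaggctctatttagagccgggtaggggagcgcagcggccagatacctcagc
TMSB4X: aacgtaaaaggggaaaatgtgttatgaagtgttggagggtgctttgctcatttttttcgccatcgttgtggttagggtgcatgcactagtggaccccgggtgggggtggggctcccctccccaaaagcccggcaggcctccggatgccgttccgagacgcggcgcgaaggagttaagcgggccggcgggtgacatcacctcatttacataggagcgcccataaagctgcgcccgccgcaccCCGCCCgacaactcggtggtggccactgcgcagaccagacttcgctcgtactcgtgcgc
H3C4 holds 1 TATAAA and 2 CCAAT, H2BC11 holds 4 of each, ELF3 holds 1 of each and TMSB4X holds 1 GGGCGG and no match to the other letters. Over the promoters of all matched members, TATAAA was found in 9.9%, against 6.17% of those of the tested protein-coding and lncRNA genes and 11.5% of all 35116 promoters. CCAAT was found in 30.2% (34.9% and 34.6%), GGGCGG in 65.6% (66.2% and 45.0%) and CACGTG in 7.81% (9.58% and 7.26%). The AP-1 and cAMP letters were in 4.69% (4.8% and 7.71%) and 2.6% (2.84% and 1.85%). A match of letters does not show a site in use.

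Of 14 transcription and chromatin factors, ELF3 was the most abundant. ELF3 (ENSG00000163435.11, chromosome 1, 201977073 to 201986311, GRCh37, plus strand) is an ETS factor of epithelia. It was at 77.29 and 114.84 TPM in si-NT at 72 h, at 118.47, 167.25, 99.91 and 79.16 TPM in depleted cells at 72 h, at 67.77 and 62.96 TPM in si-NT at 144 h and at 181.71, 141.26, 117.87 and 128.31 TPM in depleted cells at 144 h. The depleted libraries of both time points overlapped, and the si-NT libraries of 144 h were the lowest of all. The lncRNA gene ELF3-AS1 overlaps it on the other strand and was at 16.29 and 14.26 TPM in si-NT and 28.9 to 33.84 TPM in depleted cells at 144 h. The libraries were stranded but the strand setting of the counting is not stated, so reads of the pair may not be told apart. ELF5, a second epithelial ETS factor, rose at both time points, by 0.54 at 72 h (SE 0.10, limma adjusted p = 0.0305) and 1.14 at 144 h (SE 0.10, adjusted p = 5.82e-05), and so lay outside the rule.

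TSC22D3, a leucine zipper protein induced by glucocorticoids and androgens, differed at 144 h through its si-NT level. It was at 102.44 and 172.56 TPM in si-NT and at 92.29, 184.04, 182.55 and 88.94 TPM in depleted cells at 72 h. At 144 h the 4 depleted libraries lay between 138.42 and 141.84 TPM, and si-NT was at 94.62 and 41.74 TPM. The depleted mean was 1.02 times, and the si-NT mean 0.496 times, its value at 72 h. Of the 24 androgen-responsive genes tested, 10 were called higher and 1 lower at 144 h, with a median log2 difference of 0.53, and TSC22D3 was the only member among them. With spike-in scaling 2 were called higher and 0 lower, and the median was 0.22. Over all genes tested, 13.6% were higher and 10.8% lower (0.851% and 3.75% with spike-in scaling). FAM156B had the lowest si-NT ratio between the time points (0.130), with si-NT at 8.98 and 8.69 TPM at 72 h and 0.72 and 1.57 TPM at 144 h, and depleted cells at 5.85 to 11.7 and 2.13 to 12.57 TPM.

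HEY1, a repressor induced by Notch, was at 0.75 and 0.93 TPM in si-NT and at 1.86 to 2.70 TPM in depleted cells at 144 h, with 0.91 to 1.49 TPM in the 6 libraries of 72 h. The 17 Notch genes tested split evenly, with 3 higher and 3 lower (0 and 2 with spike-in scaling). HDAC11 was at 13.9 TPM in si-NT and 28.2 TPM in depleted cells, whereas HDAC2 fell by 0.48 (SE 0.11, limma adjusted p = 0.00983) and the 8 other histone deacetylase genes compared had adjusted p-values of 0.2 or more. HOXC13, HOXC4 and the lncRNA HOXC13-AS, of the HOXC cluster on chromosome 12, had ratios of 2.43, 2.49 and 2.51. Of the 5 other HOXC genes tested, HOXC6 rose by 0.57 (SE 0.10, adjusted p = 0.00248) and 4 gave adjusted p-values of 0.234 or more. YPEL2, on the list of growth arrest and quiescence genes, was at 3.07 and 6.87 TPM. Its paralogs YPEL3 and YPEL5 also rose, by 1.49 (SE 0.16, adjusted p = 0.000149) and 0.93 (SE 0.16, adjusted p = 0.00227), YPEL1 had an adjusted p of 0.392, and 7 of the 29 genes of that list were called higher and 4 lower (1 and 1 with spike-in scaling). No amino acid stress gene was a member: of 22 tested, 0 were called higher and 10 lower at 144 h (0 and 6 with spike-in scaling), with a median log2 difference of -0.55. The shares to set beside these list counts are 13.6% higher and 10.8% lower over all genes tested (0.851% and 3.75% with spike-in scaling).

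In each of 5 members of the ubiquitin system the si-NT difference between the time points was the smaller one, and the 4 depleted libraries at 144 h lay above the other 8. Of all members 46.8%, and of all genes tested 4.94%, had their depleted libraries so placed. These 5 were grouped after their values were seen. USP43, a ubiquitin protease, was at 6.54 and 5.95 TPM in si-NT at 144 h, at 6.81 to 9.91 TPM in depleted cells at 72 h and at 12.74 to 16.26 TPM in those at 144 h. MARCHF2, a membrane ubiquitin ligase of endosomes, was at 23.58 and 24.35 TPM in si-NT and at 61.69, 66.81, 36.08 and 47.81 TPM in depleted cells at 144 h, with both siRNA 2 libraries above both of siRNA 3. DNAJB2, a co-chaperone that hands clients to the proteasome and not one of these 5, was at 47.02 and 37.38 TPM and at 80.69 to 103.07 TPM.

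Of the members, 11 act in cell contacts or in guidance across them, with a median 144 h ratio of 2.39. HOMER2, a scaffold of receptor complexes, was at 49.97 and 45.13 TPM in si-NT and at 106.19, 116.89, 93.82 and 72.3 TPM in depleted cells at 144 h, and its 6 libraries of 72 h lay at 44.88 to 61.03 TPM. NECTIN2, an adhesion molecule, was at 18.64 and 16.52 TPM and at 30.69 to 41.86 TPM. CELSR3, an adhesion receptor of planar polarity, reached a ratio of 2.39 with a depleted mean that was 1.01 times that of 72 h and a si-NT mean that was 0.498 times. CTNND2, delta-catenin, had a ratio of 4.78 at low levels, 0.39 and 0.55 TPM in si-NT and 1.51 to 3.07 TPM in depleted cells.

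The 13 enzymes of metabolism had a median 144 h ratio of 2.11, and the si-NT difference was the larger one in 6. CA12, a carbonic anhydrase of the cell surface, was a member whose si-NT mean was higher at 144 h (1.29 times). It was at 19.09 and 21.04 TPM in si-NT and at 42.53, 33.58, 43.54 and 45.88 TPM in depleted cells at 144 h, and at 14.3 to 19.18 TPM in the 6 libraries of 72 h. The flippase genes ATP8A1 and ATP8B2, which move phospholipids between membrane leaflets, had ratios of 2.17 and 2.20, and their relative ATP8B1 had a ratio of 2.20 but lay outside the 72 h band.

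Among the transporters, SLC25A29, a mitochondrial carrier of basic amino acids, was at 15.4 and 13.26 TPM in si-NT and at 23.69 to 40.41 TPM in depleted cells at 144 h. It was 1 of 3 members among 223 solute carrier genes tested, of which 50 were called higher and 26 lower. Of all genes tested 13.6% were higher and 10.8% lower, and with spike-in scaling 1 solute carrier gene was higher and 12 were lower. ANO7, an anoctamin of the prostate, had mean levels of 7.82 TPM in depleted cells and 3.07 TPM in si-NT.

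The 25 lncRNA genes had lower median ratios between the time points than the protein-coding members. Their median ratio of si-NT means at 144 h over 72 h was 0.609, against 0.787 for the protein-coding members, and that of the depleted means was 1.31, against 1.60. At 72 h their median ratio was 1.04, against 1.21. They summed to 73.3 and 80.3 TPM in si-NT at 144 h, 165.4 to 204.0 TPM in depleted cells at 144 h and 112.0 to 161.6 TPM in depleted cells at 72 h. The si-NT libraries at 72 h lay far apart, at 91.5 and 147.4 TPM, so the low si-NT ratio leans on replicate 2. The difference between lncRNA and protein-coding members was not tested. LINC02593 was at 3.08 TPM on average in si-NT and at 8.90 to 12.51 TPM in depleted cells at 144 h, above the 72 h range of 3.90 to 8.68 TPM. LINC00930 was at 2.39 and 1.16 TPM and at 5.09 to 7.22 TPM. KRTAP5-AS1, RAB11B-AS1 and PSMG3-AS1 had 144 h ratios of 2.05, 2.04 and 2.16 with si-NT means at 144 h of 0.59, 0.633 and 0.507 times those at 72 h. Of 381 antisense genes tested, 40 were called higher and 26 lower at 144 h, and of 153 LINC-named genes 19 and 11, against 13.6% and 10.8% of all genes tested. With spike-in scaling the counts were 3 higher and 13 lower for antisense genes and 1 and 7 for LINC-named genes.

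The rule averaged both siRNAs at each time point and required every depleted library at 144 h to lie above si-NT, which favours genes on which the siRNAs were close, so the siRNA values at 144 h are descriptions and nothing is read from their counts. limma found 0 of the 171 genes to differ between siRNA 2 and siRNA 3 at 144 h at an adjusted p under 0.05, where 0.331% of all genes did. At an unadjusted p under 0.05 there were 29 (17.0%, against 13.3%). At 72 h the counts were 0 (0.141% of all genes) and 13 (7.6%, against 8.33%). The log2 differences ran from -0.98 to 0.89 at 144 h and from -0.81 to 0.72 at 72 h, and 93 members had the higher mean with siRNA 2 and 78 with siRNA 3 at 144 h. Each siRNA alone was at least 2 times si-NT at 144 h in 107 of the genes (62.6%, against 4.65% of all genes). With 2 libraries an siRNA these tests do not show that the siRNAs acted alike. S100A10, which binds annexin A2, had the largest difference, at 12.1 TPM with siRNA 2 and 24.7 TPM with siRNA 3 (log2 difference -0.98, SE 0.23). TMSB4X and QSOX1 were also lower with siRNA 2, with log2 differences of -0.61 and -0.59, and every library of siRNA 3 was above every library of siRNA 2. TYRP1 went the other way, at 3.53 and 1.45 TPM (0.89, SE 0.26).

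**Figure D4:**
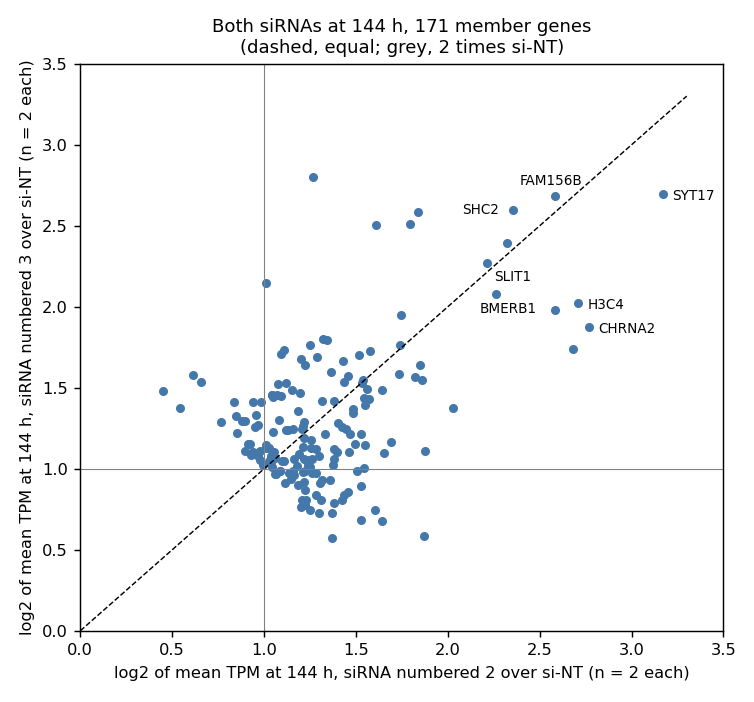
Each of the 171 genes by its log2 ratio of mean TPM over si-NT at 144 h with siRNA 2 (horizontal) and siRNA 3 (vertical), 2 libraries a mean, with both axes sharing the same si-NT libraries. Grey lines mark 2 times si-NT, which 107 genes reached with both siRNAs.

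The members were spread over 22 chromosomes, with no more than 17 on any. In 12 pairs, which hold 24 of the genes, members lay within 50000 bases of each other. These include SH3D21 and EVA1B, ELF3 and ELF3-AS1, and HOXC13 and HOXC13-AS, which overlap on opposite strands, FAM47E-STBD1 and STBD1, which overlap on the same strand, and ZSWIM8 and NDST2, whose ends lie 114 bases apart on chromosome 10. In all, 64 of the genes overlap another tested gene, 50 on the opposite strand, so that their values can hold reads of a neighbour. No share over all genes tested is given beside the pairs and overlaps, so nothing is read from their number.

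Set beside the other gene lists, the members came from lists with both more and fewer calls than all genes. The largest shares of genes called higher at 144 h were in the lysosome and autophagy, histone and androgen-responsive lists, each with 1 or 2 members. With spike-in scaling the lysosome and autophagy share was 2.86%, below those of the histone (16.7%), androgen-responsive (8.33%), cadherin (8.33%) and tubulin (5.56%) lists, among others. The zinc finger list held 1 member, ZNF579, among 464 genes, of which 31 were called higher and 37 lower (0 and 8 with spike-in scaling). Over all genes tested, 13.6% were higher and 10.8% lower (0.851% and 3.75% with spike-in scaling).

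**Figure D5:**
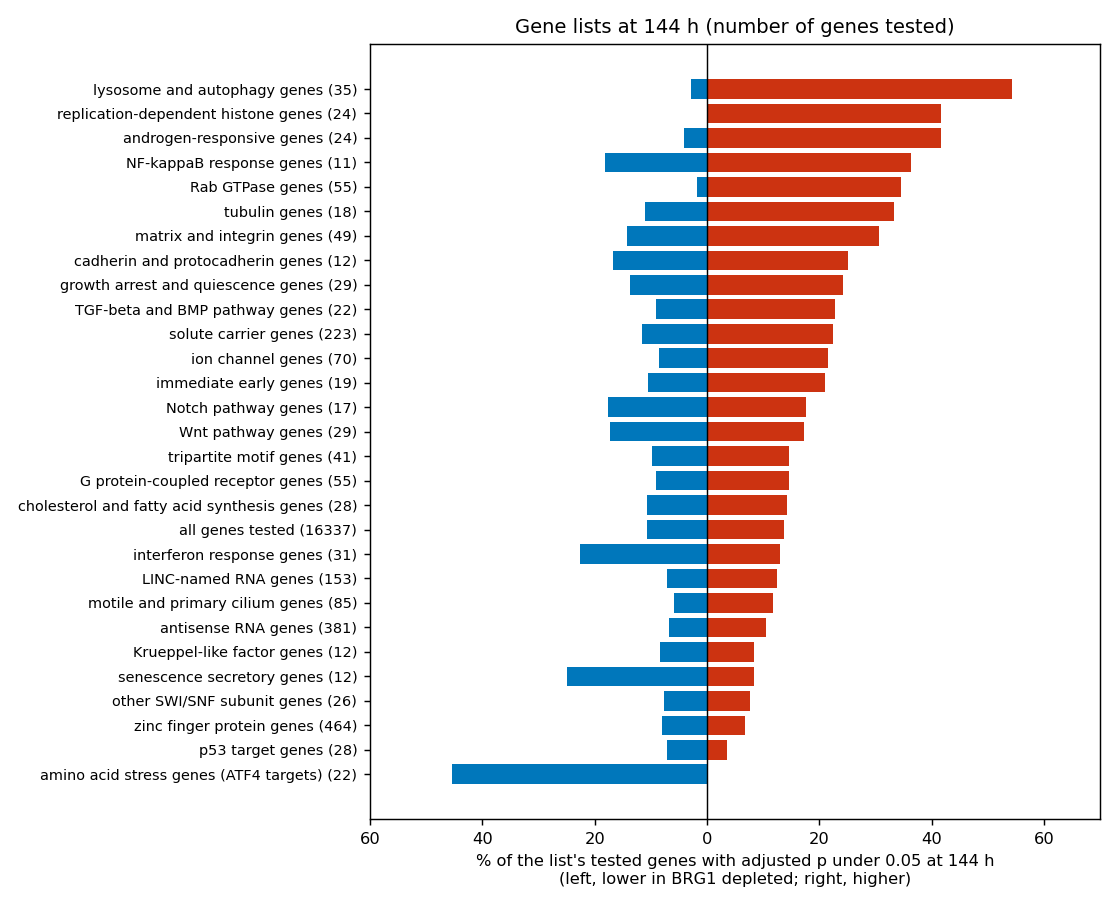
For each list with at least 10 genes tested (number in brackets), the bars give the share of its genes with a limma adjusted p under 0.05 at 144 h, higher in BRG1 depleted cells to the right and lower to the left, in %. The lysosome and autophagy list stands at the top with 19 of 35 genes higher, and the amino acid stress list at the bottom with 0 of 22 higher and 10 lower. With spike-in scaling, not drawn, these counts were 1 of 35 higher, and 0 of 22 higher and 6 lower.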

How the data were processed

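The deposited table holds TPM for 63568 genes and 92 ERCC spike-ins in 12 libraries. As the methods and the submitters' processing notes state, the authors trimmed reads with Trim Galore, aligned them to hg19 (GRCh37) with STAR 2.4.0j, counted them with featureCounts and determined TPM on GENCODE release 19. The methods also name a normalization to ERCC spike-ins. The spike-in share of the deposited TPM ran from 0.805% to 1.97% between libraries, so these TPM are not scaled to equal spike-in totals. How the authors' normalization was done is not stated in the sources used here. The strand setting of the counting is not given in the sources used here. TPM has the same total in each library, so the depth is unknown and a shift of all transcripts is not seen.

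Genes with at least 1 TPM in 2 libraries were tested on log2(TPM + 1), a scale that understates changes of low genes, with limma 3.58.1 in R 4.3.3 (lmFit, eBayes with trend, Benjamini-Hochberg over 16337 genes). The study used edgeR on counts, which TPM does not allow. Si-NT and depleted libraries were compared in 4 groups and the siRNAs in 6 groups. Ratios are of mean TPM. Gene types and positions were read from GENCODE 44 as lifted over to GRCh37, and promoters from RefSeq.

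The members, gene lists and role groups were chosen with earlier results of these data known. The genes named are the 12 members with the largest ratio and the 12 with the highest level at 144 h, up to 4 of each list, the 3 on either side of each limit, the 4 most abundant lncRNA genes and SMARCA4, and a few are not reported here. Members that met the rule with each library left out and under both other scalings, the families and a few with contrasting patterns were added after their values were seen. Procedures were tested on simulated data. The alternatives were other limits, scalings, pseudocount, filter, fits and left-out libraries.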

Additional observations from a re-analysis of the deposited data

Results flagged for a closer look

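Within groups of 4 libraries, 7 values of named members lay far from the other 3, among 118 groups looked at, and chance alone puts a value that far out in about 1 in 20 groups. Of the 4 at 72 h, 3 came from the same library, siRNA 2 replicate 2: SYT17 at 3.10 TPM against 0.97 to 1.07 TPM, PLEKHB1 at 151.88 TPM against 101.56 to 107.34 TPM and LINC02986 at 3.68 TPM against 1.71 to 2.00 TPM. The other was SNCG, at 1.26 TPM in siRNA 2 replicate 1 against 0.87 to 0.92 TPM. At 144 h, SHC2 was at 9.25 TPM in siRNA 2 replicate 1 against 12.56 to 13.09 TPM, CHRNA2 at 5.70 TPM in siRNA 2 replicate 2 against 1.85 to 2.47 TPM, and TMEM219 at 213.62 TPM in siRNA 3 replicate 2 against 173.18 to 173.95 TPM. The summed TPM of ribosomal RNA genes was 866.8 in siRNA 3 replicate 1 at 144 h against 171.8 to 212.5 in the other depleted libraries. The part of these libraries in the members' values was not tested beyond leaving each library out.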

How the results depend on the processing

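The number of genes that met the rule was 171. It was 42 with ERCC scaling, 784 with a limit of 1.5 times and 25 with a limit of 3 times at 144 h, 60 with a 72 h band of 15% either side, 55 with all 4 si-NT libraries as one control, 180 with median-of-ratios size factors, 230 with an expression limit of 1 TPM and 119 with a limit of 5 TPM. With each library left out it ran from 98 (si-NT replicate 2 at 72 h) to 286 (si-NT replicate 1 at 144 h). The count in which si-NT was lower by more than depleted was higher, 66, ran from 40 (without si-NT replicate 2 at 72 h) to 76, an alternative chosen after seeing the data, and was 57 with median-of-ratios size factors. Members called at 144 h, 149, numbered 14 with ERCC scaling and 75 (without si-NT replicate 2 at 144 h) to 151 with each library left out, where 1 si-NT library is assumed to vary like the other groups. The member called at 72 h, 1, became 0 with ERCC scaling, median-of-ratios size factors, eBayes without trend or only the libraries of 72 h, and 0 to 2 with each library left out. Members whose change differed between the time points, 0, numbered 1 with no filter and with median-of-ratios size factors, and 0 to 3 with each library left out. Members that differed between the siRNAs numbered 0 at both time points under every alternative, including each library left out. With the replicate number as a block, 148 members were called at 144 h and 0 at 72 h. Whether samples of the same replicate number were handled together is not stated. The 15 correlations of deviations between groups ran from -0.229 to 0.300, which cannot settle it. For the 59 named members, log2 ratios at 144 h were also taken under other scalings, controls and left-out libraries. Of these ratios, 763 moved by less than 1 SD or not at all, 122 moved by more, and 0 changed sign. Leaving out a library of 72 h cannot move a ratio at 144 h, so part of the 763 was fixed in advance. The rule also fixed the sign with any library left out, so nothing is read from these counts. The cause of the moves was not tested.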

Other observations

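Another 62 genes met every limit of the rule except that on gene type. They comprise 25 with no entry in the annotation used, 16 ribosomal RNA genes and others that were mostly pseudogenes, whose reads can come from near-identical copies.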
